A study of Mus musculus with 20 samples.

Results

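Epithelial-mesenchymal transition (EMT) was examined through 10 genes of mouse skin: the cadherins Cdh1 and Cdh2, the intermediate filament gene Vim, and the transcription factors Snai1, Snai2, Zeb1, Zeb2, Twist1, Twist2 and Prrx1. They were chosen by gene symbol as textbook EMT genes, and all 10 were found among the 22090 genes of the count table. RNA-seq covered 20 pieces of skin from 8 female hairless SKH-1 mice, a strain in which UV light gives skin tumours. Their age is given as 7 months, which in the study is the age before irradiation. The skin was taken after weeks of exposure, when the mice were older. Of these mice, 4 were irradiated with ultraviolet light and 4 were not, and the labels and the methods of the study differ on how often. Each irradiated mouse gave 1 piece of normal skin (NS), 2 of actinic keratosis (AK, the precursor lesion) and 1 of cutaneous squamous cell carcinoma (cSCC), and each unirradiated mouse gave 1 NS piece, so the groups held 8 NS, 8 AK and 4 cSCC. The labels do not say which mouse or which arm a piece came from, so NS of both arms formed a single group and no pieces were paired. The groups share the irradiated mice, and p-values across the 8 AK, which came from 4 mice, may be too small.

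EMT is the programme by which epithelial cells give up their cell-to-cell junctions and polarity and take on properties of motile mesenchymal cells. E-cadherin (Cdh1) holds neighbouring keratinocytes together, and zinc finger repressors of the Snail and Zeb families bind E-box sequences in its promoter and switch it off. The basic helix-loop-helix factors Twist1 and Twist2 and the homeobox factor Prrx1 drive the same programme, while N-cadherin (Cdh2) and vimentin (Vim) are its usual mesenchymal products. In skin the programme is studied in wound healing and in invasive carcinoma, but whole pieces of skin also contain dermal fibroblasts, endothelial cells and leukocytes, in which Vim, the Zeb and Twist genes and Prrx1 are normally active.

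Total counts ranged from 1624325 to 6295575 in NS, from 867219 to 14055206 in AK and from 775750 to 7095102 in cSCC. Levels are given as counts-per-million (CPM) scaled with TMM factors, which correct for library composition and ran from 0.51 in cSCC replicate 18 to 1.22 in NS replicate 1. A count of 3 corresponded to between 0.225 CPM in AK replicate 10 and 3.78 CPM in AK replicate 12. Keratinocyte markers were high in all 3 groups, as befits skin. Their score, the mean log2(CPM + 1) over 10 genes, spanned 8.90 to 9.92 in NS and 8.82 to 9.92 in AK, but was 9.09, 8.19, 7.54 and 6.63 in cSCC replicates 18, 19, 20 and 21. A pair of cSCC libraries also stood apart by genes of other organs. The heart muscle marker score was 10.96 in cSCC replicate 21 and at most 3.57 elsewhere, and the lung epithelium score was 10.04 in cSCC replicate 20 and at most 2.34 elsewhere. Fold changes in cSCC are therefore also given without these libraries for the EMT genes that could be tested and, as counts, for the gene lists. In whole tissue, fewer cells of a type and less RNA per cell cannot be told apart.

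**Figure D1:**
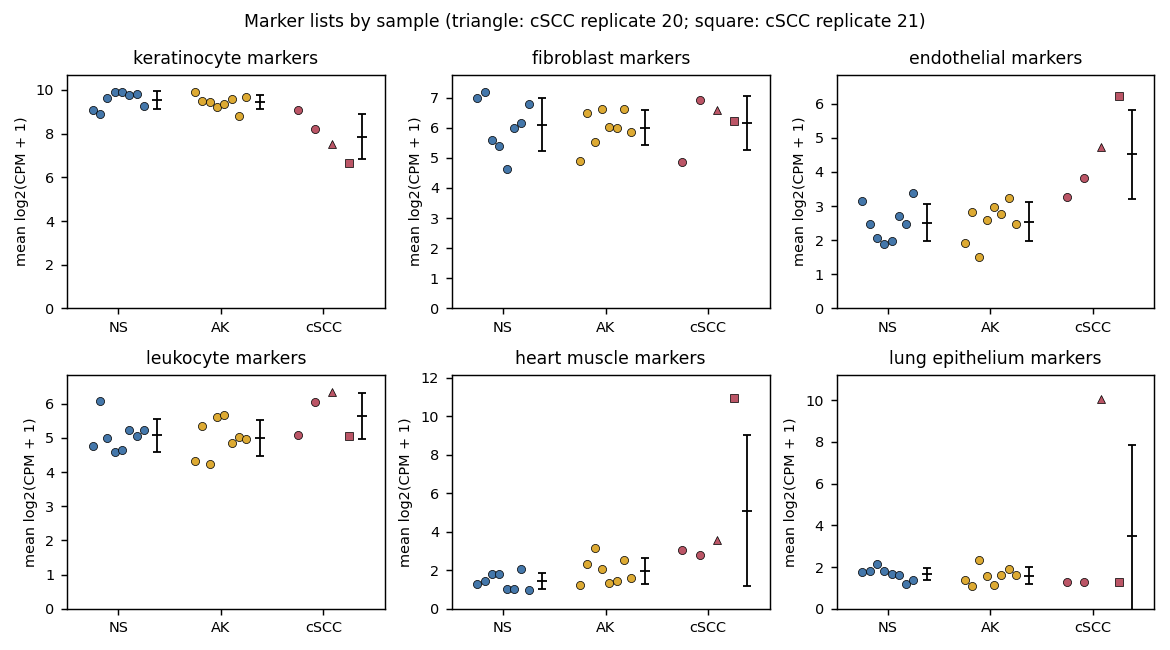
Marker score of 6 cell types in each library, as mean log2(CPM + 1) over the marker genes, with the group mean and SD beside the points. The heart muscle score of cSCC replicate 21 (10.96) and the lung epithelium score of cSCC replicate 20 (10.04) lie far above all other libraries, and the keratinocyte score is lower in 3 of the 4 cSCC libraries than in any NS or AK library.

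The E-box bound by the Snail and Zeb repressors reads CAGGTG, or CACCTG on the other strand. It was searched on both strands in RefSeq promoters of GRCm38.p6, from 250 bases before to 50 bases after the start of transcription, and 20.2% of 32851 such windows held at least 1 copy. Windows were found for 6 of the 10 EMT genes (Vim, Snai1, Zeb2, Twist1, Twist2 and Prrx1, 9 windows in all), and the Snai1 window alone held a copy, with its first base at position -126 from the start. Among the epithelial genes described further on, 9 were lower in cSCC in at least 1 comparison, 6 of these had a window, and 3 of them (Grhl3, Ocln and Dsp) held a copy. Over all 23 epithelial genes listed, 15 had a window and 10 held a copy. A match describes these letters only and is not evidence of binding. The bases before the start are shown for the EMT gene that held the motif and for Grhl3, a grainyhead factor of the epidermal barrier that was lower in cSCC than in AK, with the E-box in capitals. The Snai1 stretch lies at chr2:167537945-167538194 on the plus strand and the Grhl3 stretch at chr4:135573633-135573882 on the minus strand.
Snai1: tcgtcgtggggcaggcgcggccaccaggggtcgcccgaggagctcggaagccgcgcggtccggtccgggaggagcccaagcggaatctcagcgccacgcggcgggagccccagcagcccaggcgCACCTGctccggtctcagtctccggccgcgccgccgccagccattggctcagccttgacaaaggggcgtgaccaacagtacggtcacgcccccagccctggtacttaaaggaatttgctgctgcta
Grhl3: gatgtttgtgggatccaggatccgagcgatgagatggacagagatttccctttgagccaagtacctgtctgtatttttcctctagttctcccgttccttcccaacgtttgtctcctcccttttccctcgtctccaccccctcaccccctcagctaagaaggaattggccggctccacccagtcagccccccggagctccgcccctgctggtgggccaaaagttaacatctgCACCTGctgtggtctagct

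Levels of different genes were compared per kilobase of exon, merged over all annotated isoforms. This scale is rough, since the merged length (19.9 kb for Zeb2, 2.02 kb for Snai2) can exceed that of the transcripts in use. On it Vim was the most abundant of the 10 genes in NS at 94.4 ± 51.3 CPM per kb (SD, n = 8). Cdh1 followed at 58.8 ± 14.8 and Snai2 at 24.5 ± 5.96 CPM per kb. Prrx1 stood at 4.56, Twist1 at 3.28, Zeb2 at 2.38, Zeb1 at 1.62, Twist2 at 1.16, Snai1 at 0.572 and Cdh2 at 0.0537 CPM per kb. Ranges over the 8 NS libraries overlapped between every gene and the next in this order, except between Snai2 (18.5 to 36.6) and Prrx1 (1.63 to 8.94). Snai2 was thus the most abundant of the EMT transcription factors in normal skin on this scale. In CPM without the length, its NS mean (49.6) was close to that of Prrx1 (50.5). Per kilobase Snai2 kept its place in AK (39.2 ± 16.1 CPM per kb, n = 8) and in cSCC (29.2 ± 22.5, n = 4). Cdh1 was at 18.7 ± 9.09 CPM per kb in cSCC, below Snai2 by the mean but with overlapping ranges.

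**Figure D2:**
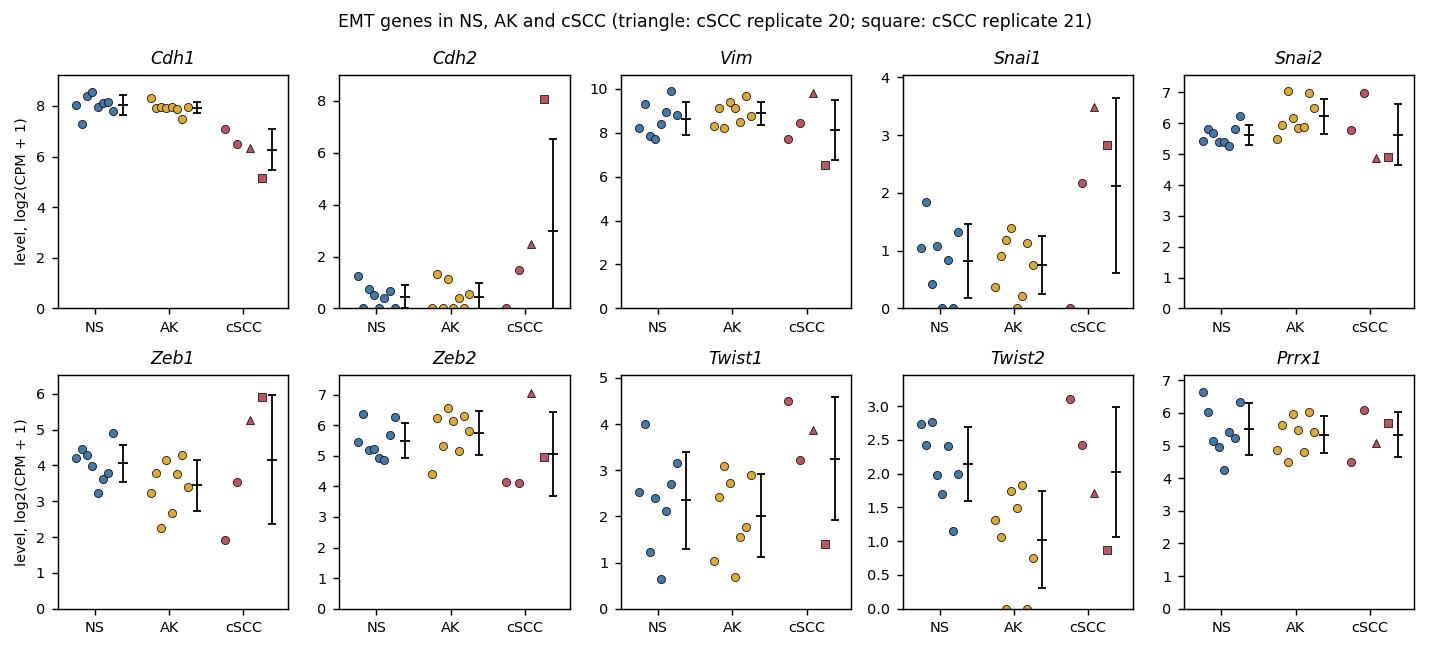
Level of each of the 10 EMT genes in each library, as log2(CPM + 1), with the group mean and SD beside the points; triangles are cSCC replicate 20 and squares cSCC replicate 21. Cdh1 is the only gene of the 10 whose cSCC libraries all lie below every NS and AK library, and Cdh2 is high in cSCC replicate 21 alone.

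Called below means an adjusted p under 0.05 in edgeR's quasi-likelihood test, with Benjamini-Hochberg adjustment over all tested genes, and a fold change above 1.5 or below 0.67. Cdh2 and Snai1 did not pass the filter on low counts in any comparison, nor Twist2 in cSCC against AK, so 8, 8 and 7 of the 10 genes were tested. None of the 8 was called between AK and NS, where 4.64% of 11677 tested genes were called (2.26% higher and 2.38% lower in AK). At an unadjusted p under 0.05 the same test gave 2 genes, Snai2 higher and Twist2 lower, while DESeq2 and limma voom each called Twist2 alone. In cSCC against NS 1 of 8 was called, Cdh1, which was lower, where 19.3% of 12097 tested genes were called (11.7% higher and 7.65% lower). In cSCC against AK 1 of 7 was called, again Cdh1 and lower, where 24.4% of 12032 tested genes were called (16% higher and 8.34% lower). In no comparison was the called share of the EMT genes larger than the share over all tested genes.

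**Figure D3:**
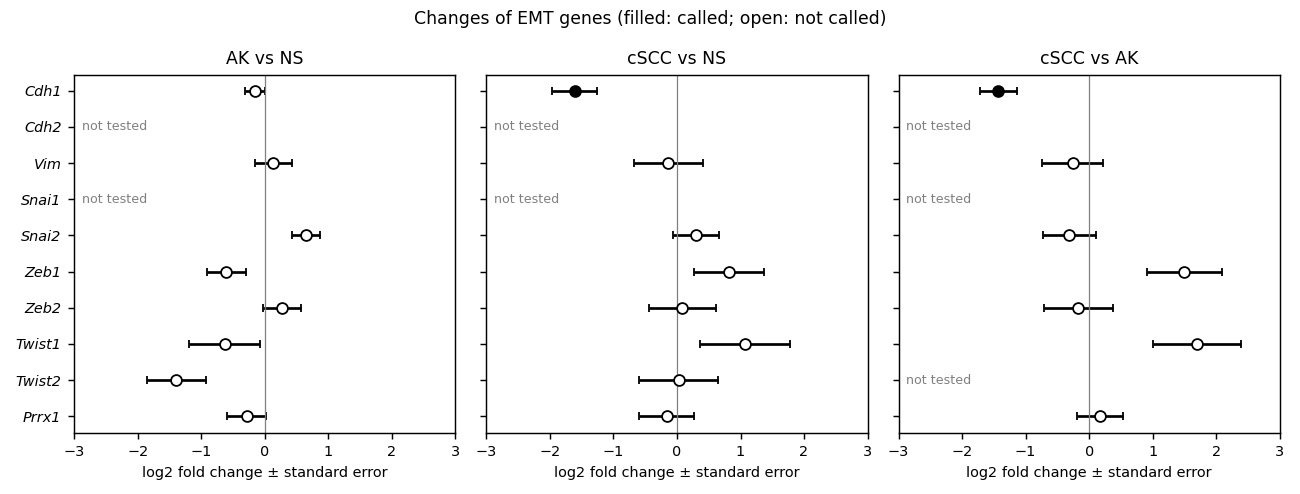
log2 fold change with its standard error for the EMT genes in the 3 comparisons, filled where called. Cdh1 is the only filled point, at -1.61 in cSCC against NS and -1.43 in cSCC against AK.

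Cdh1 (E-cadherin, chromosome 8, 106603351 to 106670246, plus strand, GRCm38) fell in cSCC. The 8 NS libraries lay between 153 and 374 CPM around a median of 267, and the 8 AK libraries between 179 and 318 around a median of 246. cSCC replicates 18, 19, 20 and 21 had 136.1, 90.1, 80.8 and 34.7 CPM, from 196, 205, 71 and 210 counts. All 4 were below the lowest NS and AK library. The mean was 85.4 ± 41.6 CPM (SD, n = 4) in cSCC, 269 ± 67.6 in NS (n = 8) and 245 ± 37.5 in AK (n = 8). In edgeR's test the cSCC level was 0.328 times that of NS (log2 fold change -1.61, SE 0.35, adjusted p = 0.00777) and 0.371 times that of AK (-1.43, SE 0.29, adjusted p = 0.00498). AK and NS differed by less than their spread (-0.15, SE 0.16, adjusted p = 0.574). Without both cSCC replicates 20 and 21 Cdh1 was still lower in cSCC, by -1.23 against NS (SE 0.34, adjusted p = 0.0369) and by -1.05 against AK (SE 0.25, adjusted p = 0.0153).

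Because keratinocytes carry most Cdh1 in skin, its level was also set against keratinocyte genes, a comparison chosen after seeing the data. Relative to the keratinocyte score of 10 markers, Cdh1 did not separate the groups on the log2 scale. The difference ranged from -1.99 to -1.19 in cSCC, from -1.92 to -1.07 in NS and from -1.71 to -1.29 in AK. The means of cSCC and NS differed by -0.08 (two-sided exact permutation test, p = 0.638, 0.766 after adjustment over the 6 such tests), and those of cSCC and AK by -0.08 (exact p = 0.582, adjusted 0.766). That score holds genes which themselves moved in cSCC. Krt1, Krt10 and Lor, products of the differentiating upper layers, fell against both groups (log2 fold changes against NS of -3.46, -4.04 and -6.35; edgeR adjusted p = 0.0244, 0.00920 and 5.58e-04), whereas Sfn, a cell cycle checkpoint gene of keratinocytes, rose (1.54, adjusted p = 0.0185). Dsg3, a basal desmosomal cadherin, rose against NS (0.95, adjusted p = 0.0461) and was at 0.49 against AK (adjusted p = 0.216), and Perp fell against AK (-1.26, adjusted p = 0.0498). Without cSCC replicates 20 and 21, Lor was still lower and Sfn higher in both comparisons, Krt10 was lower and Dsg3 higher against NS alone, and Krt1 and Perp were called in neither.

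Relative to the basal keratins Krt5 and Krt14, which were called in neither cSCC comparison, Cdh1 did separate cSCC from the other groups. These keratins were picked from the marker list after seeing the data. Other genes of the list, such as Trp63 and Itga6, were not tried alone, so the p-values below hold for this choice only. Cdh1 minus the mean of both keratins, on the log2 scale, was -5.33, -6.16, -4.32 and -5.35 in cSCC replicates 18 to 21, against -4.15 to -2.89 in NS and -4.11 to -3.34 in AK. All 4 cSCC values were below every other library. The means differed by -1.90 between cSCC and NS and by -1.59 between cSCC and AK (two-sided exact permutation test, p = 0.00202 in both, the smallest that 495 splits allow, adjusted 0.00606). Without cSCC replicates 20 and 21 the differences were -2.35 and -2.04 (exact p = 0.0222, the smallest that 45 splits allow), and relative to the keratinocyte score they were -0.34 and -0.33 (exact p = 0.133 and 0.0667). AK and NS differed by -0.31 relative to the basal keratins (exact p = 0.132, adjusted 0.264). Krt5 itself was called higher in cSCC than in AK without those replicates (log2 fold change 1.28, SE 0.26, edgeR adjusted p = 0.00860), so the basal keratins were not constant there. Krt14 was 14100, 13516, 4115 and 2917 CPM in cSCC replicates 18 to 21, and at most 13137 CPM in NS and AK. Its level in replicate 18 depends on scaling (7171 CPM by library size alone). Cdh1 was thus lower in cSCC relative to Krt5 and Krt14, and not detectably so relative to the whole marker list.

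**Figure D4:**
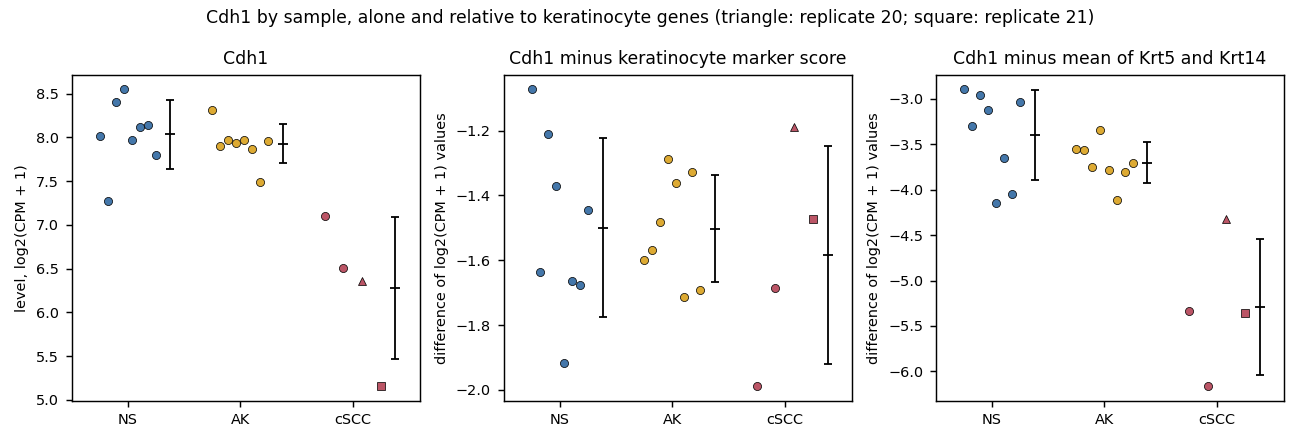
Cdh1 in each library as log2(CPM + 1), minus the keratinocyte marker score, and minus the mean of Krt5 and Krt14, with group mean and SD; triangle and square are cSCC replicates 20 and 21. The cSCC points lie below all others in the first and last panels and among them (-1.99 to -1.19) in the middle one.

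Cdh2 (N-cadherin, also the main cadherin of heart muscle) was close to absent except in a single library. NS and AK libraries had at most 1.41 and 1.52 CPM, from 16 counts over each group, and 3 NS and 4 AK libraries had none. cSCC replicates 18, 19, 20 and 21 had 0, 4, 4 and 1613 counts, or 0, 1.8, 4.6 and 266.8 CPM. The high library was the one with the heart muscle score of 10.96, in which the cardiac actin gene Actc1 reached 15454 CPM. The part of heart genes in this value was not tested. Without the filter on low counts Cdh2 would be called higher in cSCC (log2 fold change 7.11 against NS, edgeR adjusted p = 0.00266), a result that rests on replicate 21.

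Vim (vimentin, chromosome 2, 13573927 to 13582826, plus strand) showed no change that passed the test. NS libraries lay between 208 and 935 CPM with a median of 393 and AK libraries between 293 and 798 with a median of 490, and Vim was 207.0, 345.8, 903.4 and 91.0 CPM in cSCC replicates 18 to 21. The cSCC libraries thus held both the lowest value of all 20 and one near the highest. The log2 fold change was 0.14 in AK against NS (SE 0.29, adjusted p = 0.808), -0.14 in cSCC against NS (SE 0.54, adjusted p = 0.890) and -0.26 in cSCC against AK (SE 0.48, adjusted p = 0.730, edgeR throughout). Without cSCC replicates 20 and 21 it was -0.66 against NS (SE 0.52, adjusted p = 0.428) and -0.77 against AK (SE 0.40, adjusted p = 0.220).

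Of the Snail factors, Snai2 (Slug, chromosome 16, 14705852 to 14709385, plus strand), which is expressed in basal keratinocytes and fibroblasts, had a higher mean in AK than in NS. Its lowest, median and highest levels were 37.5, 46.4 and 74.0 CPM in NS and 43.6, 66.1 and 129.9 CPM in AK, so the groups overlapped. The means were 49.6 ± 12.04 and 79.2 ± 32.6 CPM (SD, n = 8 each), and the difference missed the threshold after adjustment (log2 fold change 0.64, SE 0.23, unadjusted p = 0.00984, edgeR adjusted p = 0.0900). cSCC replicates 18 to 21 had 53.5, 124.8, 28.4 and 29.1 CPM, so that 1 lay above the NS range, 2 lay below both ranges and none lay above the AK range (0.30 against NS, adjusted p = 0.589; -0.31 against AK, adjusted p = 0.620). Replicate 19 decided the sign against NS, which was -0.37 without it. Without replicates 20 and 21 the log2 fold change was 0.88 against NS (SE 0.32, adjusted p = 0.0862) and 0.27 against AK (SE 0.41, adjusted p = 0.712).

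Snai1 (Snail, chromosome 2, 167538195 to 167542814, plus strand), whose promoter is shown above, was near the limit of detection. NS libraries had 0 to 9 counts (at most 2.61 CPM) and AK libraries 0 to 7 (at most 1.64 CPM). cSCC replicates 18, 19, 20 and 21 had 0, 8, 9 and 37 counts, or 0, 3.5, 10.2 and 6.1 CPM. In 3 of the 4 cSCC libraries Snai1 was thus above every NS and AK library. Without the filter on low counts its log2 fold change was 2.34 against NS (SE 0.96, edgeR adjusted p = 0.114) and 2.67 against AK (SE 0.96, adjusted p = 0.0647). With the filter but without cSCC replicate 18, Snai1 passed it and was called higher in both comparisons. Replicates 20 and 21, which hold the lung and heart genes, are 2 of the 3 libraries with these higher values, and without both Snai1 did not pass the filter.

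The Zeb repressors varied widely among cSCC. Zeb1 ranged from 8.45 to 28.9 CPM in NS and from 3.78 to 18.6 in AK, and was 2.8, 10.55, 37.5 and 59.4 CPM in cSCC replicates 18 to 21. Both values above the other groups came from replicates 20 and 21. The log2 fold change was 0.81 against NS (SE 0.55, edgeR adjusted p = 0.321) and 1.5 against AK (SE 0.59, unadjusted p = 0.0227, adjusted p = 0.0755), but -1.24 and -0.61 without both of them (adjusted p = 0.161 and 0.563). Against AK, Zeb1 was called higher when cSCC replicate 18 or cSCC replicate 19 was left out. In AK against NS Zeb1 had a log2 fold change of -0.60 (SE 0.30, adjusted p = 0.219).

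Zeb2 (chromosome 2, 44983632 to 45117395, minus strand) had its lowest, median and highest level at 28.1, 39.4 and 81.7 CPM in NS and at 20.4, 61.8 and 92.8 CPM in AK. It was 16.7, 16.3, 130.8 and 30.3 CPM in cSCC replicates 18 to 21, so 2 of the cSCC libraries lay below every NS and AK library and replicate 20 above all. The edgeR log2 fold changes were 0.27 in AK against NS (SE 0.29, adjusted p = 0.603), 0.08 in cSCC against NS (SE 0.53, adjusted p = 0.933) and -0.17 in cSCC against AK (SE 0.55, adjusted p = 0.852). Without cSCC replicates 20 and 21 Zeb2 was called lower in cSCC than in AK (-1.75, SE 0.53, adjusted p = 0.0444) and stood at -1.50 against NS (SE 0.46, adjusted p = 0.0519). Replicate 20 also had the highest leukocyte score of the 4 cSCC libraries, 6.35 against 5.05 to 6.06. Parts of the exons of Zeb1, Zeb2 and Twist2 are overlapped by genes on the opposite strand, and the strand used in counting is not given in the sources used here, so reads of these partners may be included.

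Twist1 (chromosome 12, 33957671 to 33959829, plus strand) and Twist2 (chromosome 1, 91801461 to 91848028, plus strand), both normally active in dermal fibroblasts, were low. Twist1 ranged from 0.563 to 15.1 CPM in NS and from 0.603 to 7.57 in AK, and was 21.5, 8.3, 13.7 and 1.7 CPM in cSCC replicates 18 to 21, from 31, 19, 12 and 10 counts. In 3 of 4 cSCC libraries Twist1 was above every AK library, and the log2 fold change of cSCC was 1.70 against AK (SE 0.69, unadjusted p = 0.0265, edgeR adjusted p = 0.0832) and 1.07 against NS (SE 0.71, adjusted p = 0.307). It was called higher against AK when cSCC replicate 21 was left out (2.03, adjusted p = 0.0441), and was not called without both replicates 20 and 21 (2.12, SE 0.72, adjusted p = 0.0705 against AK; 1.47, SE 0.76, adjusted p = 0.218 against NS). The highest value depends on scaling, since replicate 18 had 10.95 CPM by library size alone.

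Twist2 lay between 1.22 and 5.77 CPM in NS around a median of 3.64, and between 0 and 2.56 CPM in AK around a median of 1.29, with overlapping groups and 2 AK libraries at 0 counts. The means were 3.68 ± 1.61 and 1.25 ± 0.981 CPM (SD, n = 8 each). The log2 fold change of AK against NS was -1.39 (SE 0.46, unadjusted p = 0.00685, edgeR adjusted p = 0.0765). The AK libraries at 0 were replicates 12 and 16, the shallowest of the group, in which 3 counts correspond to 3.78 and 1.80 CPM. cSCC replicates 18 to 21 had 7.6, 4.4, 2.3 and 0.8 CPM (log2 fold change 0.03 against NS, SE 0.62, adjusted p = 0.979). Without replicates 20 and 21 it was 0.70 against NS (SE 0.64, adjusted p = 0.498) and, now tested, 2.14 against AK (SE 0.83, adjusted p = 0.106).

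Prrx1 (chromosome 1, 163245119 to 163313710, minus strand), a homeobox gene of limb and dermal mesenchyme, lay between 18.03 and 98.9 CPM in NS around a median of 39.3 and between 21.4 and 64.7 CPM in AK around a median of 42.6, and was 21.5, 66.8, 33.0 and 50.8 CPM in cSCC replicates 18 to 21. All cSCC values lay within the range of NS. The log2 fold changes were -0.29 in AK against NS (SE 0.31), -0.16 in cSCC against NS (SE 0.43) and 0.17 in cSCC against AK (SE 0.36), with edgeR adjusted p = 0.594, 0.827 and 0.761. Both cSCC values stayed near 0 without replicates 20 and 21 (-0.16, SE 0.57, adjusted p = 0.883 against NS; 0.16, SE 0.45, adjusted p = 0.854 against AK).

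Other genes of the pathway were read from 6 lists. Among 18 tested EMT transcription factors and partners, 1 was called in AK against NS, where Tcf3 (E2A, which binds E-boxes as a partner of the Twist proteins) fell, by a log2 fold change of -1.13 (SE 0.31, edgeR adjusted p = 0.0409). Of all tested genes 2.38% fell in that comparison. The median of the list was -0.12, and of all tested genes -0.04. In cSCC against NS 2 of 18 rose and 3 fell, with a median of 0.01 beside 0.14 over all genes. Of all tested genes 11.7% rose and 7.65% fell, so the rising share of the list was no larger than that of all genes. Ctbp2, a corepressor recruited by Zeb proteins, rose (1.46, SE 0.39, adjusted p = 0.0196), as did Id3, an inhibitor of E-box factors (0.87, adjusted p = 0.0303). The E-protein gene Tcf12 fell from 82.2 ± 23.7 to 36.5 ± 12.6 CPM (-1.13, SE 0.31, adjusted p = 0.0208), and Foxc1 (-3.13, adjusted p = 0.0258) and Id4 (-2.88, adjusted p = 0.0436) fell as well. In cSCC against AK 3 of 19 rose (Id3, Ctbp1 and Sox4) and 1 fell (Tcf12, -1.36, SE 0.25, adjusted p = 0.00314), with a median of 0.27 beside 0.17. Of all tested genes 16% rose and 8.34% fell, so neither share of the list was larger than that of all genes. Leaving out cSCC replicates 20 and 21, the counts were 0 higher and 1 lower (Id4) against NS, and 0 higher and 2 lower (Tcf12 and Id4) against AK. Over all genes, 733 of 12762 tested then rose and 825 fell against NS, and 843 of 12567 rose and 741 fell against AK.

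The catenins that tie Cdh1 to the cytoskeleton were mostly not called, but some scattered widely among cSCC. Ctnna1 (alpha-catenin) was 202, 343, 156 and 501 CPM in cSCC replicates 18 to 21, and 238 to 329 CPM in NS. Of 5 tested cadherin-catenin partners none was called in AK against NS or in cSCC against AK. In cSCC against NS 1 fell, where 7.65% of all tested genes fell. This was Ctnnd1 (p120-catenin, which stabilises E-cadherin at the membrane), which was 47.6 ± 7.56 CPM in NS (n = 8) and 22.4 ± 10.5 in cSCC (n = 4; log2 fold change -1.03, SE 0.29, edgeR adjusted p = 0.0240). Its cSCC values were 17.4, 36.9, 22.8 and 12.7 CPM in replicates 18 to 21, and it was not called without both replicates 20 and 21. Ctnnb1 (beta-catenin) had a log2 fold change of 0.00 (SE 0.27, adjusted p = 0.996) and Jup (plakoglobin) of 0.02 (SE 0.29, adjusted p = 0.969). The Ctnnb1 level was 317, 347, 512 and 188 CPM in cSCC replicates 18 to 21, and 296 to 427 CPM in NS. P-cadherin (Cdh3), the other classical cadherin of the basal epidermis, was at 0.92 (SE 0.48, adjusted p = 0.191).

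Epithelial identity factors, which oppose EMT, were lower in cSCC in several cases. Against NS 4 of 9 tested fell (Grhl1, Esrp1, Esrp2 and Klf4) and 1 rose (Elf3), where 7.65% of all tested genes fell and 11.7% rose. The median was -1.09 beside 0.14. The splicing regulator Esrp1, which keeps epithelial isoforms, ranged from 146 to 360 CPM in NS, and was 114.6, 45.3, 55.8 and 21.2 CPM in cSCC replicates 18 to 21. All 4 cSCC libraries were below every NS and AK library for Esrp1 (-1.96, SE 0.41, edgeR adjusted p = 0.00677 against NS; -1.93, SE 0.35, adjusted p = 0.00296 against AK). Grhl1, a grainyhead factor that activates desmosomal and junction genes, was 65.3, 20.7, 34.1 and 23.3 CPM in cSCC against 211 ± 61.1 in NS (-2.51, SE 0.37, adjusted p = 0.00150) and 185 ± 42.8 in AK (-2.28, SE 0.32, adjusted p = 0.00162). Elf3, an epithelial Ets factor, went the other way, with 18.2 ± 6.19 CPM in cSCC and 3.07 ± 2.15 in NS (2.62, SE 0.67, adjusted p = 0.0156). Against AK 4 of 9 fell (Grhl1, Esrp1, Grhl3 and Klf4) and none rose, where 8.34% of all tested genes fell, with a median of -1.22 beside 0.17. Grhl3, whose promoter is shown above, was 21.9 ± 8.04 CPM in cSCC and 56.8 ± 15.03 in AK (-1.22, SE 0.31, adjusted p = 0.0121), and missed the threshold against NS (adjusted p = 0.0532). With cSCC replicates 20 and 21 left out, 3 of 10 tested fell in each comparison (Esrp1 and Grhl1 in both, Esrp2 against NS, Grhl3 against AK). Elf3 still rose against NS. Over all genes, 825 of 12762 tested fell against NS and 741 of 12567 against AK in those fits.

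Junction and surface genes of epithelia moved in the same direction in part. Of 11 tested, 3 fell in cSCC against NS and 2 against AK, with none higher, where 7.65% and 8.34% of all tested genes fell, and the medians were -0.96 and -0.68 beside 0.14 and 0.17 over all genes. Cldn1, the tight junction claudin of the epidermis, had the largest change, at 83.3, 13.2, 55.8 and 12.4 CPM in cSCC replicates 18 to 21 against 417 ± 89.3 in NS and 364 ± 75.0 in AK (log2 fold change -3.31, SE 0.52, edgeR adjusted p = 0.00171 against NS; -3.08, SE 0.49, adjusted p = 0.00219 against AK). Occludin (Ocln; -2.30, SE 0.74, adjusted p = 0.0416) and the membrane protease Prss8 (-1.93, SE 0.47, adjusted p = 0.0136) also fell against NS, and desmoplakin (Dsp; -0.96, SE 0.30, adjusted p = 0.0320) fell against AK. Without cSCC replicates 20 and 21 Cldn1, Ocln and Prss8 fell in both comparisons, and 1 gene, Crb3, rose against AK. In AK against NS none of the 11 was called, and their median was -0.53 beside -0.04. The keratinocyte score moved with these genes in cSCC, and its part in them was not tested.

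**Figure D5:**
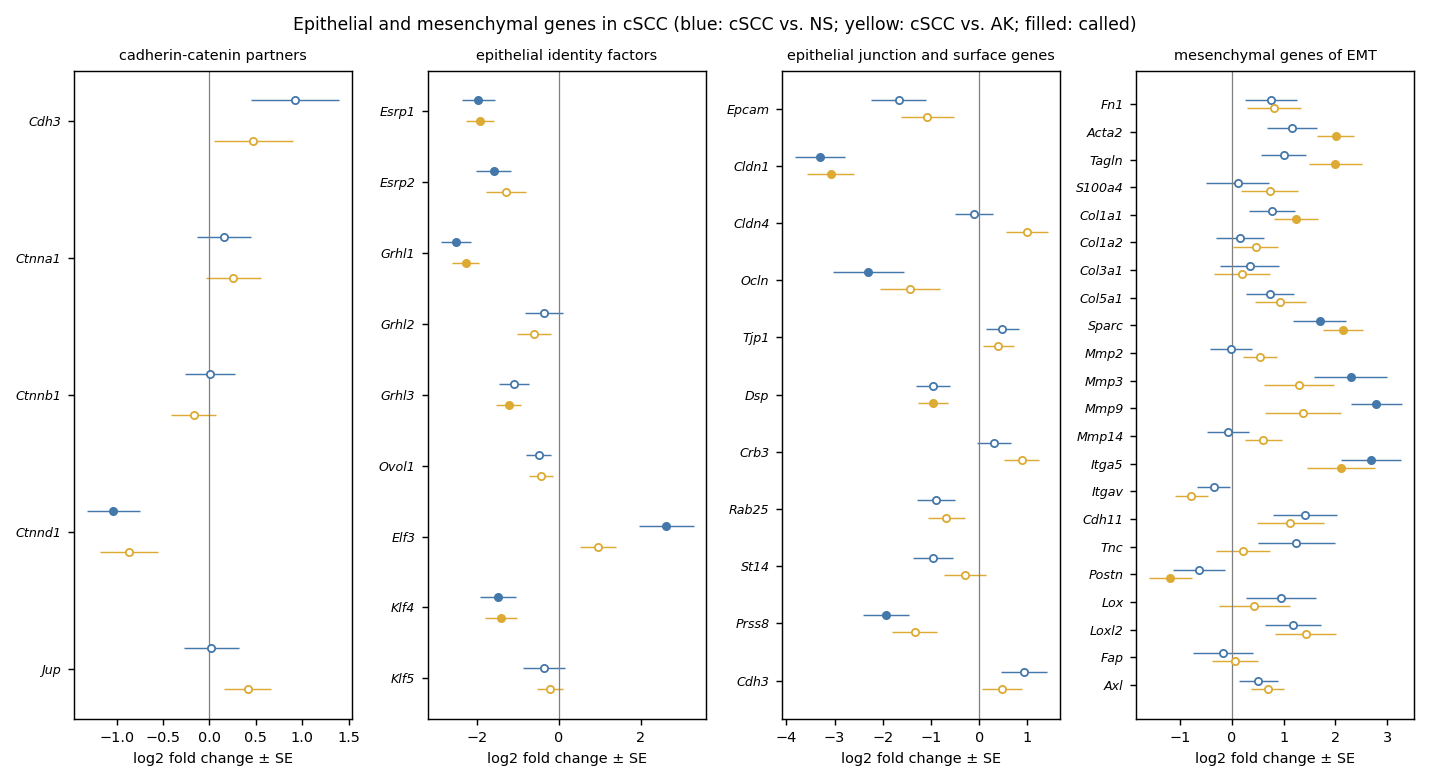
log2 fold change with its standard error of 4 gene lists in cSCC, against NS in blue and against AK in yellow, filled where called (Cdh3 belongs to 2 of the lists). Most identity factors lie left of 0 (medians -1.09 and -1.22) with Elf3 on the right, and most mesenchymal genes lie right of 0 (medians 0.76 and 0.77).

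Mesenchymal genes of EMT rose in part in cSCC. Against NS 4 of 22 tested rose and none fell, where 11.7% of all tested genes rose, and the median was 0.76 beside 0.14. Mmp9, a gelatinase also made by leukocytes, was 23.1 ± 12.3 CPM in NS and 365.4, 111.6, 93.3 and 53.4 CPM in cSCC replicates 18 to 21 (log2 fold change 2.79, SE 0.49, edgeR adjusted p = 0.00288), so that every cSCC library was above every NS library. The fibronectin receptor subunit Itga5 (2.68, SE 0.58, adjusted p = 0.00767), the stromelysin Mmp3 (2.29, adjusted p = 0.0343) and the matricellular Sparc (1.70, adjusted p = 0.0338) were the others. Against AK 5 of 22 rose and 1 fell, where 16% and 8.34% of all tested genes rose and fell, with a median of 0.77 beside 0.17. Smooth muscle actin (Acta2) was 108.4, 124.8, 78.5 and 137.6 CPM in cSCC against 30.3 ± 13.2 in AK (2.01, SE 0.36, adjusted p = 0.00288), and Sparc (2.15, SE 0.39, adjusted p = 0.00299), Tagln (2.00, adjusted p = 0.0129), Itga5 (2.11, adjusted p = 0.0298) and Col1a1 (1.23, adjusted p = 0.0485) also rose. Postn, a matricellular gene, fell (-1.19, SE 0.41, adjusted p = 0.0477).

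When cSCC replicates 20 and 21 were left out, 2 mesenchymal genes rose against NS (Mmp3 and Mmp9) and 3 against AK (Acta2, Col1a1 and Sparc), with medians of 0.77 and 0.82. Over all genes, 733 of 12762 tested rose against NS and 843 of 12567 against AK in those fits. Mmp3 and Mmp9 were not called against AK with all libraries (edgeR adjusted p = 0.173 and 0.180). Markers of other cell types moved beside them to differing degrees. Of 10 fibroblast markers none rose in cSCC and Thy1 fell against NS, with scores of 4.87 to 6.93 in cSCC, 4.64 to 7.20 in NS and 4.89 to 6.61 in AK. Of 10 endothelial markers 9 rose against NS and 10 against AK, where 11.7% and 16% of all tested genes rose. Endothelial scores were 3.26, 3.82, 4.73 and 6.23 in cSCC replicates 18 to 21 and at most 3.38 in NS. Without replicates 20 and 21, 0 and 1 endothelial markers were called. Summed over the 10 markers, the endothelial level was 133 to 861 CPM in cSCC and 36.6 to 125 CPM in NS. None of the fibroblast or endothelial markers was at 0 throughout a group. Of the leukocyte markers, 2 of 10 rose against NS (Cd14 and C1qa) and 1 fell (Cd52), and 2 of 9 rose against AK (Cd14 and C1qa), with scores of 5.05 to 6.35 in cSCC, 4.58 to 6.08 in NS and 4.22 to 5.68 in AK. Without replicates 20 and 21, Cd14 was still called against NS, and both genes against AK. Of the smooth muscle and pericyte markers, Des alone rose, 1 of 5 tested against NS and 1 of 4 against AK, with medians of 1.24 and 1.56. Their scores were 2.16, 2.6, 3.87 and 5.91 in cSCC replicates 18 to 21, 2.57 to 4.17 in NS and 1.60 to 3.24 in AK, and without replicates 20 and 21 none rose and Myh11 fell against NS. The part of these cell types in the mesenchymal genes, Acta2 and Tagln included, was not tested.

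Of the upstream TGF-beta genes, the best known inducers of EMT, 2 of 7 tested rose in AK against NS, where 2.26% of all tested genes rose. The ligand gene Tgfb1 had at most 5 counts in any library and was tested in no comparison. The receptor gene Tgfbr1 was 65.5 ± 20.3 CPM in AK and 40.3 ± 7.68 in NS (log2 fold change 0.69, SE 0.19, edgeR adjusted p = 0.0418), and its effector Smad2 was 67.5 ± 8.02 and 43.4 ± 7.94 CPM (0.62, SE 0.13, adjusted p = 0.0190, n = 8 each). The groups overlapped for both. In cSCC 1 of 8 rose against NS, the inhibitory Smad7 (1.81, SE 0.58, adjusted p = 0.0421), and 1 of 8 against AK, the ligand gene Tgfb3, where 11.7% and 16% of all tested genes rose. Tgfb3 was 6.3, 16.3, 5.7 and 19.4 CPM in cSCC replicates 18 to 21 and 1.43 ± 1.02 in AK, without overlap (3.13, SE 0.59, adjusted p = 0.00335), but 5.43 ± 5.07 in NS (1.21, adjusted p = 0.295). No TGF-beta gene was called against NS without cSCC replicates 20 and 21, and Tgfb3 was called higher against AK.

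Across the 16 NS and AK libraries, 16 relations were examined on log2(CPM + 1), with the limit that pieces of the same mouse are not independent. cSCC libraries were left out because they stood apart. Of the 16 relations, 7 passed a permutation test by r after adjustment (2 within NS and 2 within AK). By rho 7 passed as well, but 0 within NS and 2 within AK. Prrx1 followed the fibroblast score most closely, with r = 0.89 and rho = 0.89 (both p = 1e-05, the smallest that 100000 permutations can give, adjusted 1.60e-04), and r = 0.84 without the 2 libraries farthest from its median. Within NS r was 0.94 (exact permutation p = 0.00109, adjusted 0.0175) and within AK 0.79 (exact p = 0.0166, adjusted 0.0886). By rho Prrx1 passed neither within NS nor within AK (adjusted exact permutation p = 0.0730 and 0.0571). Zeb2 followed the fibroblast score with r = 0.77 (permutation p = 5.10e-04, adjusted 0.00272) and rho = 0.78 (permutation p = 4.60e-04, adjusted 0.00368), with r = 0.70 without the 2 farthest libraries, 0.77 within NS (exact p = 0.0270, adjusted 0.108) and 0.92 within AK (exact p = 0.00216, adjusted 0.0345). Pairs of Zeb1 (r = 0.60), Twist1 (r = 0.63) and the sparse Snai1 (r = 0.61) with the same score also passed (adjusted permutation p = 0.0334, 0.0281 and 0.0334), of which only that of Zeb1 passed by rho as well (0.66, adjusted 0.0209). Snai2 did not pass (r = 0.25, permutation p = 0.362, adjusted 0.434; rho = 0.29, permutation p = 0.269, adjusted 0.331). Vim passed within AK (r = 0.87, exact permutation p = 0.00506, adjusted 0.0405) and, over both groups, by rho (0.60, permutation p = 0.0167, adjusted 0.0382) but not by r (0.54, permutation p = 0.0303, adjusted 0.0606).

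Cdh1 followed the keratinocyte score in NS and AK (r = 0.79, permutation p = 1.70e-04, adjusted 0.00136; rho = 0.72, permutation p = 0.00211, adjusted 0.0113). The relation was r = 0.70 without the 2 farthest libraries and 0.75 within NS (exact p = 0.0222, adjusted 0.108). Within AK it rested on AK replicates 10 and 16, since r went from 0.88 to -0.30 without them. Of the 6 repressors, Zeb2 alone passed by r, running against Cdh1 (r = -0.64, permutation p = 0.00619, adjusted 0.0248; rho = -0.69, permutation p = 0.00425, adjusted 0.0170). It did not pass within NS (r = -0.70, exact p = 0.0482, adjusted 0.117) or within AK (r = -0.65, exact p = 0.1005, adjusted 0.230), where r was 0.23 without AK replicates 10 and 16. Over NS and AK together, Zeb2 also followed the fibroblast score (r = 0.77) and Cdh1 the keratinocyte score (r = 0.79). The part of this mix of cell types in the pair of Zeb2 and Cdh1 was not tested. Snai2 against Cdh1 passed by rho (-0.60, permutation p = 0.0160, adjusted 0.0382) and not by r (-0.47, permutation p = 0.0658, adjusted 0.117). For Snai1, Zeb1, Twist1 and Twist2 against Cdh1, r ran from -0.46 to 0.22 with adjusted permutation p of at least 0.117.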

How the data were processed

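RNA-seq counts per gene symbol were deposited by the authors as raw, unnormalized counts. Per the labels, reads were trimmed with Trimmomatic 0.36, aligned with HISAT2 2.0.5 and counted with featureCounts 1.5.2, with mm9 named as a build, whereas the methods of the study name GRCm38 and StringTie, so the build and counter behind the counts are uncertain. Groups were taken from the labels. The 10 EMT genes and all gene lists were chosen with earlier results of these data known.

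Each pair of groups was fitted alone on the counts with edgeR 4.0.16 (R 4.3.3, filterByExpr, TMM, glmQLFit and glmQLFTest, no covariates), with Benjamini-Hochberg adjustment over all tested genes. Genes were called at an adjusted p under 0.05 with a fold change of more than 1.5 or less than 0.67. SE is the log2 fold change divided by the square root of F. CPM used TMM factors over all 20 libraries, and scores and correlations used log2(CPM + 1). The procedure was tested on simulated counts with known changes and a spread shared by all genes. The simulation held no libraries like cSCC replicates 20 and 21, so it does not show how the test performs with them. Named were the 10 genes and, per list and comparison, up to 3 called genes with the smallest adjusted p. Other list genes (Id3 and Id4 against NS, Sox4, Esrp2, Klf4, Mmp3 against NS, Itga5, Col1a1 and Postn against AK, Ctnna1, Ctnnb1, Jup, Cdh3, Crb3, Tgfb1) and marker genes were named after their values were seen. Alternatives were library size alone, upper quartile factors, DESeq2 1.42.0, limma 3.58.1 voom with sample weights, no filter or at least 10 counts in every sample, 1 fit over 20 libraries, no fold limit, unadjusted p, the rule of the study (an equal-variance test per gene on log2 values, unadjusted), each library left out in turn, and both cSCC replicates 20 and 21 left out. Gene positions came from GENCODE on GRCm38. Paralog pairs (Snai1 and Snai2, Zeb1 and Zeb2, Twist1 and Twist2, Cdh1 and Cdh2) shared 0 stretches of 50 bases. By the methods of the study, the 8 NS came from 8 mice, and the 4 cSCC and 8 AK from the 4 irradiated of these, so groups share mice that could not be matched. A gene of the mesenchymal list is not reported here, and the counts and medians of that list leave it out.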

Additional observations from a re-analysis of the deposited data

Results flagged for a closer look

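Each of the 10 EMT genes was checked in each group for a library far from the others, and 2 of the 30 sets were singled out, where chance alone gives about 1 in 20. Cdh2 in cSCC replicate 21 was 266.8 CPM (1613 counts), while the nearest cSCC library had 4.55 CPM; the gap made up 0.983 of the range, above Dixon's critical value for 4 samples. The heart muscle score of this library was 10.96. Zeb2 in cSCC replicate 20 was 130.8 CPM (115 counts), while the nearest cSCC library had 30.3 CPM; the gap made up 0.878 of the range. The lung epithelium score of this library was 10.04 and its leukocyte score 6.35. The part of these other tissues in either value was not tested.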

How the results depend on the processing

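Cdh1 was called lower in cSCC under all 21 alternatives tried in each comparison, with log2 fold changes from -1.98 to -1.23 against NS and from -1.81 to -1.05 against AK. Relative to the keratinocyte score, an alternative chosen after seeing the data, it was at -0.08 in both and not called.

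Of the EMT genes in AK against NS, 0 were called, but 1 with DESeq2 and with voom (Twist2), 2 by the rule of the study and at unadjusted p (Snai2 and Twist2), and 0 to 1 when a library was left out (Twist2 without NS replicate 8, Snai2 without AK replicate 10). In cSCC against NS, 1 was called, but 2 without a filter (Cdh2 added), and 1 to 2 when a library was left out (Snai1 added without cSCC replicate 18). In cSCC against AK, 1 was called, but 2 with DESeq2 (Twist1 added), without a filter (Cdh2), in the fit of all 20 libraries and by the rule of the study (Snai1), and without cSCC replicates 20 and 21 (Zeb2, lower), 3 at unadjusted p (Twist1 and Zeb1), and 1 to 3 when a library was left out (Snai1 and Zeb1 without cSCC replicate 18, Zeb1 without 19, Twist1 without 21). Of the 16 relations, 7 passed by r, and 3 to 8 when a library was left out (3 without AK replicate 10, 4 without NS replicate 2, 6 or 9).

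In these fits no EMT gene changed sign that was called with all libraries. Against NS, cSCC log2 fold changes turned to 0.35 for Vim, -0.076 for Zeb1, -0.32 for Zeb2, -0.0081 for Twist2 and 0.030 for Prrx1 with voom, to -0.054 for Zeb2 and -0.44 for Twist2 by library size, to -0.0011 for Twist2 with upper quartile factors, and to -7.7e-05 for Zeb2 and -0.021 for Twist2 in the fit of 20 libraries. Against AK, Prrx1 turned to -0.037 without a filter and to -0.044 by the rule of the study. Leaving out 1 library, or both cSCC replicates 20 and 21, gave -0.00014 to 0.37 for Vim in AK against NS. In cSCC against NS it gave -1.02 to 0.18 for Vim, -0.37 to 0.88 for Snai2, -1.24 to 1.17 for Zeb1, -1.50 to 0.37 for Zeb2, -0.59 to 0.70 for Twist2 and -0.45 to 0.050 for Prrx1. In cSCC against AK it gave -1.12 to 0.0043 for Vim, -0.98 to 0.27 for Snai2, -0.61 to 1.77 for Zeb1, -1.75 to 0.12 for Zeb2 and -0.10 to 0.30 for Prrx1. The cause of these changes was not tested.

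Over all genes, 542 were called in AK against NS, but 9 in the fit of 20 libraries, 1049 with DESeq2, 1043 with voom, 2299 by the rule of the study, 1798 at unadjusted p and 164 to 920 when a library was left out. The 2340 of cSCC against NS were 1308 with voom, 3905 by the rule of the study, 4052 at unadjusted p and 1558 without replicates 20 and 21, and the 2935 against AK were 1270, 4247, 4504 and 1584. By library size alone the median of all genes moved from 0.14 to -0.17 against NS and from 0.17 to -0.09 against AK, and 625 of 1957 and 1021 of 2377 called genes were higher. Cdh2, Snai1 and Twist2 were limited by depth, and intervals across 4 cSCC libraries are wide. No paired analysis was possible because the labels do not say which mouse a piece came from and the groups share no replicate numbers.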
